A study of Homo sapiens with 4 samples.

Results

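The clustered genes of keratins and keratin-associated proteins (KRTAP) are represented by 6 windows of the human genome, and the H3K27me3 peaks called inside these windows in HaCaT cells are described here. A peak was a member when it overlapped a window by at least 1 bp in build hg19. The windows were chromosome 12 from 52560000 to 53350000 for the type II keratins, chromosome 17 from 38800000 to 39800000 for the type I keratins with KRTAP genes among them, chromosome 11 from 1580000 to 1670000 (11p15) and from 71230000 to 71300000 (11q13) for the KRTAP5 genes, and chromosome 21 from 31650000 to 32260000 (21q22.1) and from 45950000 to 46130000 (21q22.3) for other KRTAP genes. They held 24 of the 22045 peaks of both lists, 8 of 8890 in the DMSO list and 16 of 13155 in the AKBA list. The windows are defined by position, and peak values do not enter their definition.

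HaCaT is an immortalised line of human epidermal keratinocytes. It was grown for 12 hours in medium with the solvent DMSO or in medium with AKBA, an abbreviation commonly used for an acetylated boswellic acid, which the labels do not spell out. The labels state no dose. H3K27me3, trimethylated lysine 27 of histone H3, was immunoprecipitated from crosslinked chromatin, and the series holds 1 H3K27me3 library and 1 input library per condition. There were no replicates, so the differences between conditions are descriptions without any test, and the number of reads behind the peaks is unknown.

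H3K27me3 is written by Polycomb repressive complex 2 and is found at genes held silent, above all at those of development. Keratins build the intermediate filaments of epithelia from pairs of 1 type I and 1 type II protein. KRT5 pairs with KRT14 in basal keratinocytes, KRT1 with KRT10 in differentiating ones, KRT6A with KRT16 in wounded or fast-dividing epidermis, and KRT8 with KRT18 in simple epithelia. Other members of both types are hair keratins. KRTAP proteins fill the matrix between keratin filaments of the hair shaft, a structure that epidermal keratinocytes do not build. By name, the RefSeq table of assembly GRCh38.p14 held 149 protein-coding genes of these families on the 4 chromosomes, 55 keratins and 94 KRTAP genes. The type II cluster ran from KRT80 to KRT18 with 27 genes and the type I cluster from KRT222 to KRT17 with 28 keratins and 34 KRTAP genes. The KRTAP5 genes numbered 6 (KRTAP5-1 to KRTAP5-6) and 5 (KRTAP5-7 to KRTAP5-11), and the chromosome 21 clusters 33 and 16. The windows do not hold every one of these genes. In that assembly the genes named for 21q22.1 span 757 kb against a window of 610 kb, with KRTAP19-8 standing 157 kb past the others, and those named for 11p15 span 113 kb against a window of 90 kb, with KRTAP5-6 standing 66.3 kb past the others. That table is of another build than the peaks. No peak was therefore assigned to a gene, and whether a named gene carried the mark was not analysed here.

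Sequence of the peaks themselves is not shown, because an hg19 genome was not used here. To show what kind of promoters these clusters hold, the 250 bases before the start of 1 gene from each of 3 clusters follow, from RefSeq, 5′ to 3′ on the gene's strand, with every CG dinucleotide in capitals. Each was chosen, after its count was seen, as a promoter with the most CG in its cluster. Their coordinates are of GRCh38.p14 and cannot be compared with the hg19 positions of the peaks.
KRT40 (GRCh38.p14, chr17:40987002-40987251, minus strand, 6 CG): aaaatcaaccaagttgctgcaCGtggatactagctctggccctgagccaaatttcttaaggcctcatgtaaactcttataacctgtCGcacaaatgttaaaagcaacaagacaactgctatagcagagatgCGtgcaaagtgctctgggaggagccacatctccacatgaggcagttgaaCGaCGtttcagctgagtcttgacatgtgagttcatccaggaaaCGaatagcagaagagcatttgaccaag
KRTAP13-1 (GRCh38.p14, chr21:30395781-30396030, plus strand, 3 CG): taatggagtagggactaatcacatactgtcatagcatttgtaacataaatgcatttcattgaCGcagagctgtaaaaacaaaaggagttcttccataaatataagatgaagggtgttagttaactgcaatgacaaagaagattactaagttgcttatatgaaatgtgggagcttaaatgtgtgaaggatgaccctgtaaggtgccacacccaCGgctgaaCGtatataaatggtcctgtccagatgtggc
KRTAP10-6 (GRCh38.p14, chr21:44592506-44592755, minus strand, 10 CG): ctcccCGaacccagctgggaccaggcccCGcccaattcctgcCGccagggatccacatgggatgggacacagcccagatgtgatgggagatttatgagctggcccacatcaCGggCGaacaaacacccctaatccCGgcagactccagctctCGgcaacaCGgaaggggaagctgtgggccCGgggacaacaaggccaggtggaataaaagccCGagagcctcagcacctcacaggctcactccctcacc

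KRT40 is a type I hair keratin of the chromosome 17 cluster, and KRTAP13-1 and KRTAP10-6 stand for the clusters at 21q22.1 and 21q22.3. CG is the same on both strands, and its number in the 250 bases was counted for each promoter in the table. In the chromosome 17 cluster, 53 of 62 genes had a promoter in the table, with a median of 1 CG and a range of 0 to 6. Of the genes named for 21q22.1, 30 of 33 had one, with a median of 1 and a range of 0 to 3. At 21q22.3, 15 of 16 had one, with a median of 3 and a range of 0 to 10. Over 15843 protein-coding promoters of the same length the median was 17 CG, and 43.3% held at least 20 CG, a number that none of the promoters counted in these 3 clusters reached. At least 1 CG was held by 15347 of the 15843, against 38 of 53, 21 of 30 and 14 of 15 in the 3 clusters. For the type II cluster (14 of 27 genes matched) and both KRTAP5 clusters (1 of 6 and 1 of 5) the count is void, because under 80% of the genes had a promoter in the table. Whether base composition bears on the number of peaks was not tested.

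No peak in these windows was called at the same place in both conditions. Of the 8 DMSO peaks 0 overlapped an AKBA peak, against 54.5% of all DMSO peaks, and of the 16 AKBA peaks 0 overlapped a DMSO peak, against 32.2% of all AKBA peaks. A count of 0 allows a share of up to 37.5% of 8 peaks and up to 18.8% of 16, taking 3 counts as the limit, for counting error only and as if neighbouring peaks were independent. Shares among peaks of the same range of width and score were lower than those of the full lists. Among DMSO peaks no wider and no higher-scoring than the members (6561 peaks of up to 1047 bp and a score of up to 5.16) 41.2% overlapped the AKBA list. Among AKBA peaks within the members' limits (9196 peaks of up to 2150 bp and a score of up to 3.81) the share was 17.3%, which lies below the limit of 18.8% that 0 of 16 allows. In flanks of each window's own length on both sides, 20 of 35 DMSO peaks (57.1%, exact 95% binomial interval 39.4 to 73.7%) and 18 of 42 AKBA peaks (42.9%, 27.7 to 59.0%) were shared, 9 and 8 of them in the flank before the type II window. The count of 0 holds for the windows as drawn. Extended by 50 kb on each side, they held 16 DMSO and 28 AKBA peaks, of which 6 and 6 were shared.

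**Figure D1:**
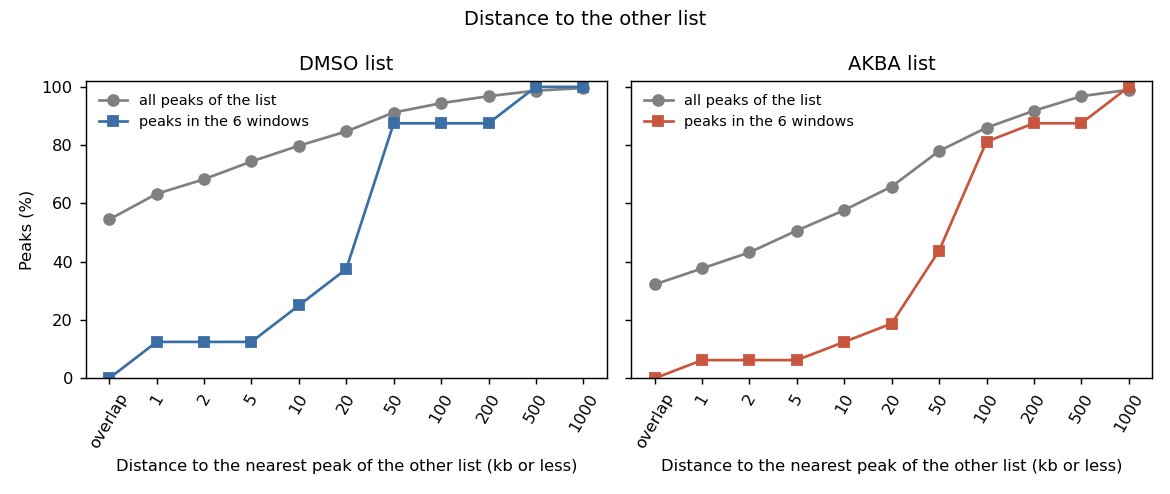
Cumulative share of peaks (y axis, %) whose nearest peak of the other list overlaps them or lies within the distance on the x axis (kb, unequal steps), for all peaks of a list (grey circles) and for the peaks in the 6 windows (coloured squares). At the overlap point the windows stand at 0% and the full lists at 54.5% (DMSO) and 32.2% (AKBA).

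The nearest peaks of the 2 conditions were 249 bp apart, at the lower end of the 11p15 window. All other members lay at least 7.49 kb from the other list. Within 10 kb of the other list were 2 of 8 DMSO members, against 79.8% of all DMSO peaks, and 2 of 16 AKBA members, against 57.7% of all AKBA peaks. The median distance was 21 kb for the DMSO members and 63.7 kb for the AKBA members, and the greatest were 454 and 706 kb.

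For the windows as drawn, a lower share than of the genome was covered by peaks in both lists. This order and the order by number of peaks depended on the setting. The windows together held 2.92 DMSO and 5.84 AKBA peaks per Mb, against 3.04 and 4.49 per Mb of the genome between the first and last peak of each chromosome. Without the 11p15 window, which holds 5 of the 8 DMSO peaks, the DMSO rate was 1.13 per Mb, and with the 8890 highest-scoring peaks of each list the AKBA rate was 2.92 against 3.04 in the genome. Called peaks covered 0.137% of the windows in the DMSO list and 0.425% in the AKBA list, against 0.259% and 0.501% of the genome. With the windows extended by 50 kb on each side, the covered bases went from 3760 to 10282 bp (DMSO) and from 11658 to 24286 bp (AKBA). The covered share of the extended windows was above the genome's in both lists. The flanks of all windows held 6.39 DMSO and 7.66 AKBA peaks per Mb, and 0.452% and 0.867% of their sequence was covered. The flank before the type II window held 16 of the 35 DMSO and 14 of the 42 AKBA flank peaks. Without the type II window and its flanks, the rates were 4.10 in the windows and 4.87 in the flanks for DMSO, and 7.18 and 6.67 for AKBA, so that the AKBA order turned. By window, the rate was higher than in the flanks at 11p15 in the DMSO list (55.6 against 27.8) and, in the AKBA list, at 11q13 (42.9 against 14.3) and in the type I window (6 against 5.50). By covered sequence the order was the opposite at 11p15 (2.6% against 2.94%) and in the type I window (0.4% against 0.491%). At 11q13 it was the same (2.87% against 1.68%). Extending the windows by 50 kb on each side, with the flanks moved outward, turned the AKBA difference from 1.82 peaks per Mb fewer in the windows (-1.82) to 1.35 more. The DMSO difference remained below 0, at -1.80 after -3.47.

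**Figure D2:**
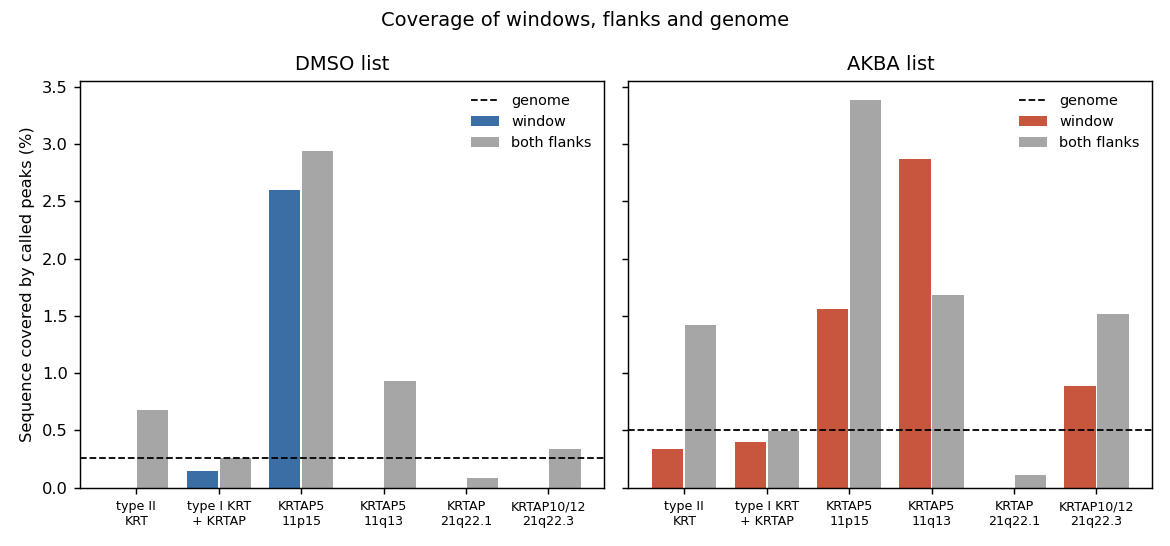
Sequence covered by called peaks (y axis, %) in each window (coloured bars), in its 2 flanks of the same length (grey bars) and in the genome (dashed line), for the DMSO and the AKBA list. In the DMSO list the 11p15 window (2.60%) and its flanks (2.94%) stand highest, and in the AKBA list the 11p15 flanks (3.38%) and the 11q13 window (2.87%). The window at 21q22.1 has no bar in either list, and 4 of 6 windows have none in the DMSO list.

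Members ranged from 164 to 1047 bp in the DMSO list and from 214 to 2150 bp in the AKBA list. The score is the authors' value per peak on a scale that is not stated. It was read within a list, except where a cutoff of at least 3 was applied to both lists. The median DMSO member was 411.5 bp wide with a score of 2.82, where the whole list stood at 552.5 bp and 3.02, and 3 of 8 exceeded the list's median width and 3 of 8 its median score. The median AKBA member was 624 bp wide with a score of 2.68, where the whole list stood at 742 bp and 2.99, and 6 of 16 exceeded the median width and 4 of 16 the median score. At the narrowest width of the AKBA list, 214 bp, were 3 of the 16.

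**Figure D3:**
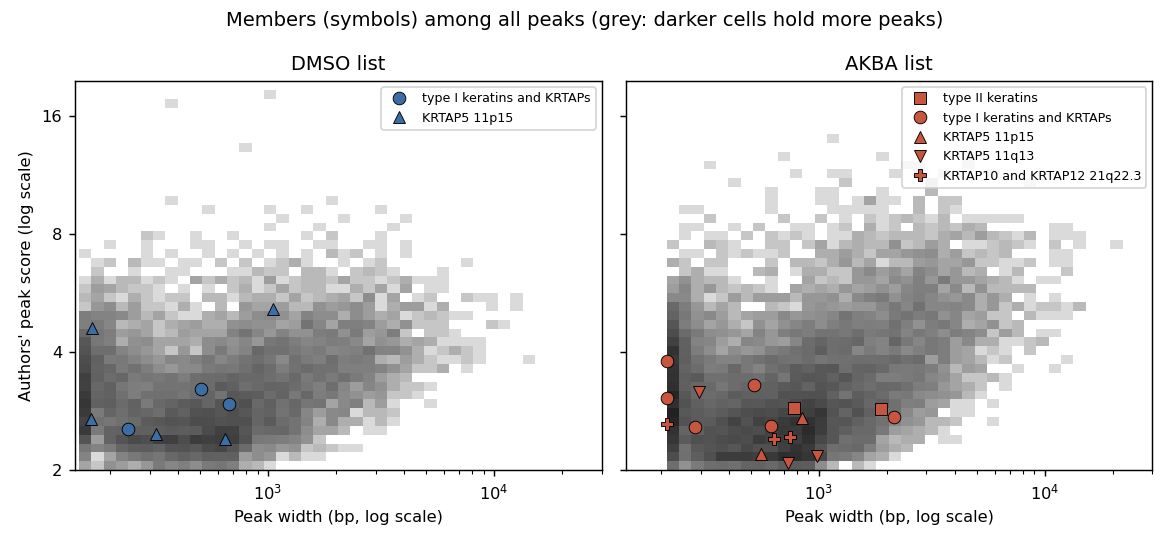
Width (x axis, bp, log scale) and authors' score (y axis, log scale) of the peaks in the windows (coloured symbols, by window) over all peaks of the same list (grey cells, darker with more peaks). In the DMSO list the 2 peaks at 11p15 with scores of 5.16 and 4.61 stand above its other members. In the AKBA list the members reach 3.81.

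In the window of the type II keratins the DMSO list had no peak and the AKBA list had 2. Windows of 790 kb without a DMSO peak were common, 43.5% of 290859 windows placed every 10 kb. More AKBA than DMSO bases were seen in 56.8% of them. The AKBA excess of 2657 bp went to 0 bp with a score of at least 3, a cutoff just above the scores of both AKBA peaks. The excess remained 2657 bp with each list cut to the same number of highest-scoring peaks. It was also 2657 bp with peaks within 5 kb joined and with the window extended by 50 kb on each side. With peaks of at least 1 kb it was 1883 bp. The first AKBA peak, from 52993431 to 52994204, was 774 bp wide with a score of 2.88, above 45.3% of AKBA scores. The second, from 53107804 to 53109686, was 1883 bp wide, wider than 84.8% of AKBA peaks, with a score of 2.87. Both lay in the upper part of the window, 433 and 548 kb from its start, and 592 and 706 kb from the nearest DMSO peak.

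The type II window lay inside a stretch of 1.74 Mb without a DMSO peak, from 52401598 to 54144674. Of the 8867 stretches between DMSO peaks 396 (4.47%) were as long, 19 of them on chromosome 12. A long stretch is likelier than a short one to hold a given window. This share, counted by stretches, therefore does not measure how unusual the window is. The flank before the window was dense in both lists, with 16 DMSO and 14 AKBA peaks in 790 kb, 9 and 8 of them shared. The flank after it had 0 DMSO and 2 AKBA peaks. The last peak before the keratin window stood 158 kb from its edge in the DMSO list and 75.7 kb in the AKBA list.

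In the window of the type I keratins and KRTAP genes the lists held 3 DMSO and 6 AKBA peaks, and 8 of these 9 lay between 17.5 and 136 kb from its start. The DMSO peaks were at 38897958 to 38898461 (504 bp, score 3.22), 38928064 to 38928302 (239 bp, 2.55) and 39390068 to 39390742 (675 bp, 2.95). The AKBA peaks were at 38817487 to 38819636 (2150 bp, the widest member, score 2.73), 38822187 to 38822471 (285 bp, 2.57), 38832724 to 38833338 (615 bp, 2.60), 38873177 to 38873694 (518 bp, 3.29), 38880843 to 38881056 (214 bp, 3.06) and 38935793 to 38936006 (214 bp, 3.81). All 6 AKBA peaks lay in that part, and the first 2 DMSO peaks stood among them without touching one. The nearest pair was 7.49 kb apart. More AKBA than DMSO bases, 3996 against 1418 bp here, were seen in 62.2% of windows of 1000 kb. That excess of 2578 bp ranged from 442 bp with a score of at least 3 to 5128 bp with peaks within 5 kb joined. Joined peaks count at their full span, the sequence between them included. Windows of that length with at least 3 DMSO and 6 AKBA peaks and no overlap in them were 2.60% of 65955. These minimums are the window's own counts. Windows with more peaks, and so more occasions for an overlap, are included, and neighbouring windows overlap each other. The share therefore does not measure how unusual the window is.

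The larger part of the type I window was nearly free of the called mark. From 38936007 to 40223139, 1.29 Mb, the AKBA list had no peak. This stretch took up 86.4% of the window and went on past it. Of 13132 stretches between AKBA peaks 514 (3.91%) were as long, 6 of them on chromosome 17. Long stretches are likelier to reach into a given window, so this share does not measure how unusual the stretch is. In the same part of the window the DMSO list had 1 peak, the one of 675 bp, 454 kb from the nearest AKBA peak. Chromosome 17 was densely marked, with a median of 4 DMSO and 6 AKBA peaks in its windows of 1000 kb. As few peaks or fewer were found in 45.7% of its windows in the DMSO list and in 55.9% in the AKBA list, and as few bases or fewer in 26.2% and 34.1%.

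The KRTAP5 window at 11p15 was the one with more DMSO than AKBA peaks, 5 against 2. KRTAP5 genes code for cysteine-rich hair proteins and resemble each other in sequence, so short reads from them may be placed uncertainly, which was not tested. The DMSO peaks covered 2342 bp and the AKBA peaks 1400 bp, a difference of -942 bp (AKBA minus DMSO). More DMSO bases were found in 4.62% of 292469 windows of 90 kb, and an excess at least as large in 0.435%. At least 5 DMSO peaks were found in 0.958% of these windows, and no DMSO peak in 85.6%. The direction and limits were taken from this window's own values, and neighbouring windows overlap. These shares therefore do not measure how unusual the window is. With the window extended by 50 kb on each side the difference turned to 562 bp more in the AKBA list. With peaks within 5 kb joined it was -7585 bp, where joined peaks count at their full span, the sequence between them included.

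The excess came from a run of 4 DMSO peaks within 8.67 kb, from 1646759 to 1655424. They measured 1047 bp (1646759 to 1647805, score 5.16), 164 bp (1650256 to 1650419, 2.70), 166 bp (1651568 to 1651733, 4.61) and 646 bp (1654779 to 1655424, 2.40). The first scored above 95.1% and the third above 90.4% of DMSO peaks, and they were the highest-scoring members of their list. The nearest AKBA peak, at 1625999 to 1626551 (553 bp, score 2.20), was 20.2 kb away. When peaks separated by at most 5 kb were joined, the DMSO list formed 186 runs of at least 4 peaks, and 183 of them had an AKBA peak within their span. The other 3 were this one, a run on chromosome 10 with an AKBA peak 4.04 kb away, and one on chromosome 11 from 117543730 with an AKBA peak 2.13 kb away. At this minimum of 4 peaks, which is the run's own size and was chosen after it was seen, the run at 11p15 was the one of 186 with no AKBA peak within 5 kb. At a minimum of 3 peaks there were 6 of 448 such runs, and at a minimum of 2 peaks 107 of 1454. In the opposite direction, 20 of 240 AKBA runs of at least 4 peaks had no DMSO peak in their span and 17 had none within 5 kb.

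The remaining peaks at 11p15 were a close pair and the lone AKBA peak. The DMSO peak from 1593994 to 1594312 (319 bp, score 2.48) and the AKBA peak from 1594562 to 1595408 (847 bp, score 2.72) were separated by 249 bp. Windows with at least 5 DMSO and 2 AKBA peaks and no overlap in them were 2.17% of 2770. These minimums are again the window's own counts, and windows with more peaks and overlapping windows are included. This share does not measure how unusual the window is either. Just outside the window the lists coincided. A DMSO peak of 2520 bp and an AKBA peak of 3825 bp overlapped 10.8 and 10.4 kb before its start, and peaks of 160 and 420 bp overlapped 7.62 and 7.28 kb after its end.

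At 11q13, the other home of the KRTAP5 genes, the order of the lists was the opposite, with 0 DMSO and 3 AKBA peaks. The AKBA excess of 2011 bp shrank to 294 bp with a score of at least 3 or with each list cut to its 8890 highest-scoring peaks, and to 0 bp with peaks of at least 1 kb. No DMSO peak was found in 88.0% of 292515 windows of 70 kb, and no AKBA peak in 83.8%. More AKBA bases were found in 14.4%, and at least 3 AKBA peaks without a DMSO peak in 0.491%. The last limits are this window's own counts, and neighbouring windows overlap, so that share does not measure how unusual the window is. The AKBA peaks were at 71238701 to 71238994 (294 bp, score 3.17), 71251875 to 71252607 (733 bp, 2.09) and 71273819 to 71274802 (984 bp, 2.17). The last 2 had among the lowest scores of the AKBA list, above 1.82% and 5.12% of its peaks. The nearest DMSO peaks were 79.0, 65.4 and 43.2 kb away. The covered share, 2.87%, exceeded that of both flanks together, 1.68%, and of the genome, 0.501%. The flank before the window had no AKBA peak, and the flank after it was covered to 3.35%, more than the window. Whether the difference between the KRTAP5 windows is more than the spread between libraries could not be tested with 1 library per condition.

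The KRTAP window at 21q22.1, a cluster that includes glycine- and tyrosine-rich families such as KRTAP6, KRTAP7 and KRTAP8, had no peak in either list. This was common, since 39.5% of windows of 610 kb had none. The window lay inside a stretch of 1.62 Mb without a peak of either list, from 31313527 to 32929736. Of 17085 such stretches 352 (2.06%) were as long, 3 of them on chromosome 21. Long stretches are likelier to hold a given window, so this share does not measure how unusual the window is. At the far end of the stretch peaks of both lists overlapped. They were a DMSO peak of 303 bp and an AKBA peak of 752 bp, 670 kb past the window. Absence from the lists means that the authors' caller made no call there, and lower levels of the mark were not measured.

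The window at 21q22.3, with the cysteine-rich KRTAP10 and KRTAP12 genes, had 0 DMSO and 3 AKBA peaks. The AKBA excess of 1594 bp went to 0 bp with the 8890 highest-scoring peaks of each list, with a score of at least 3 and with peaks of at least 1 kb. No DMSO peak was found in 76.4% of windows of 180 kb and more AKBA than DMSO bases in 26.3%. No AKBA peak was found in 70.5%, and those windows could not have more AKBA bases. The AKBA peaks were at 45970608 to 45970821 (214 bp, the narrowest width of the list, score 2.63), 46067125 to 46067871 (747 bp, 2.44) and 46095757 to 46096389 (633 bp, 2.40). All 3 scored in the lower part of the AKBA list, above 32.0%, 20.9% and 19.0% of its peaks. The DMSO list had no peak from 44074802 to 46130734, 2.06 Mb, a length reached by 298 of 8867 stretches (3.36%). This share of stretches does not measure how unusual the window is, since long stretches are likelier to hold a given window. The stretch without a DMSO peak ended 0.735 kb past the window. There a DMSO peak of 766 bp overlapped an AKBA peak of 1420 bp, so this shared pair falls just outside the window.

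**Figure D4:**
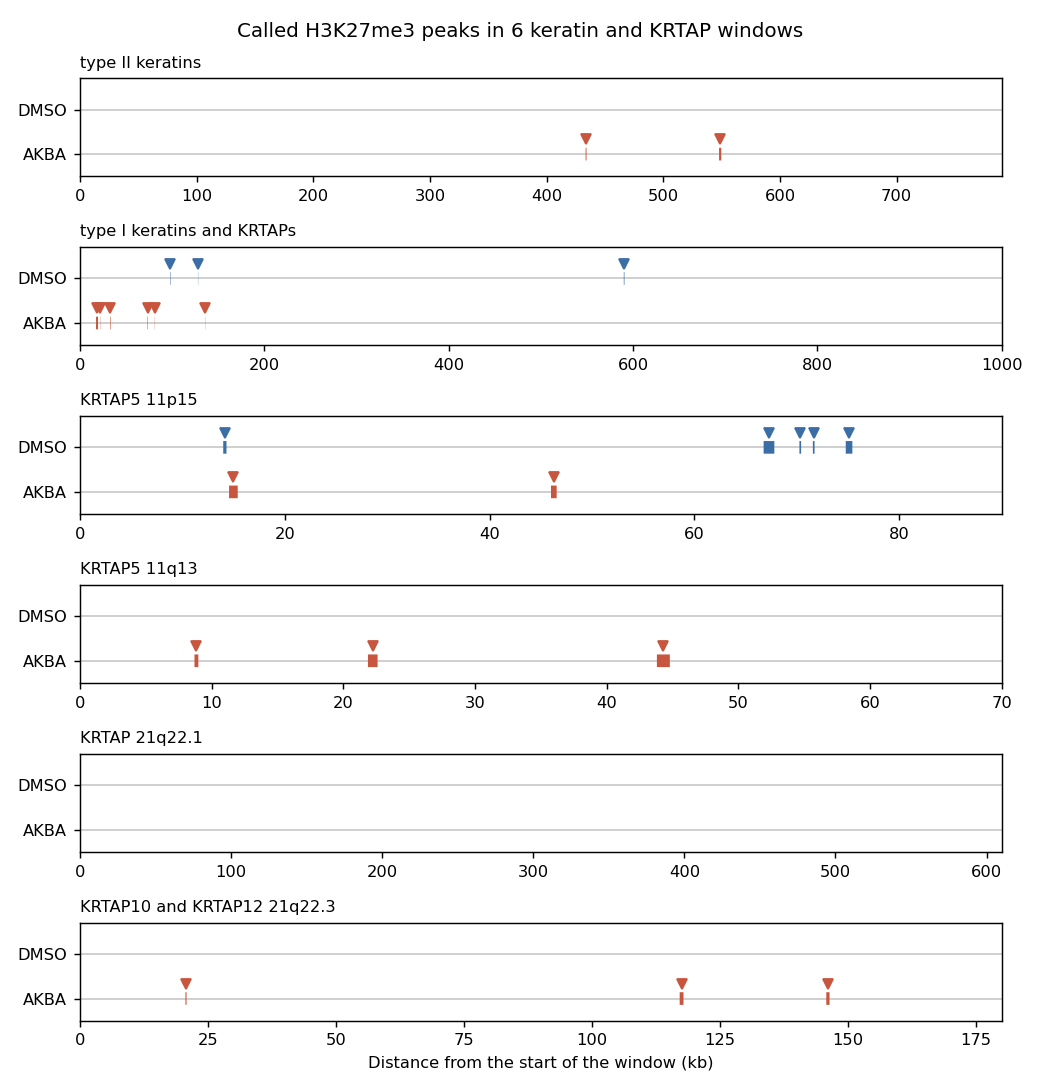
Called H3K27me3 peaks in the 6 windows by distance from the start of each window (x axis, kb, a different scale in each panel), with DMSO peaks on the upper and AKBA peaks on the lower line of a panel. Bars are drawn to scale, so the narrowest are faint, and triangles mark their centres; no bar of one line stands over a bar of the other, and the run of 4 DMSO peaks lies between 66.8 and 75.4 kb at 11p15.

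Ordered by peaks per Mb, a KRTAP5 window came first in each list, 11p15 with DMSO and 11q13 with AKBA. These are the shortest of the 6 windows, 90 and 70 kb, where each peak adds most to the rate. The 2 keratin windows, which hold the filament genes, had 1.68 DMSO and 4.47 AKBA peaks per Mb. Their covered sequence, 0.0792% and 0.372%, lay below the genome's mean of 0.259% and 0.501%. Among all windows of the type I length, 61% (DMSO) and 67.1% (AKBA) had as few bases or fewer. For the type II length these shares were 43.5% and 64.5%. Only the type II window in the DMSO list thus fell below the median window of the genome. Among windows of chromosome 17 alone, 26.2% (DMSO) and 34.1% (AKBA) had as few bases as the type I window or fewer. By that measure the type I window fell below the median in both lists. For the type II window among those of chromosome 12 the shares were 45.9% and 71.6%. By peaks per Mb the DMSO order was 11p15 (55.6), type I (3) and the other 4 at 0. The AKBA order was 11q13 (42.9), 11p15 (22.2), 21q22.3 (16.7), type I (6), type II (2.53) and 21q22.1 (0). These rates rest on 2 to 6 peaks per window where any were called, and no spread between libraries can be set beside them. Chromosome 11 as a whole had 4.68 DMSO and 6.89 AKBA peaks per Mb and chromosome 21 had 1.32 and 2.14.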

How the data were processed

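H3K27me3 chromatin immunoprecipitation followed by sequencing was compared in HaCaT cells between DMSO and AKBA, with 1 library per condition, and the 2 input libraries have no values used here. Per the submitters' processing notes, BWA, STAR and MACS2 were used with build hg19, and their versions are not stated. No peak threshold, use of input or treatment of duplicate reads was stated either. The authors deposited 1 peak list per library, with a score per peak on an unstated scale. Scores were therefore used within a list, apart from the cutoff of at least 3 applied to both lists. The narrowest peak and smallest gap were 160 and 641 bp in the DMSO list and 214 and 857 bp in the AKBA list, which can alter numbers of peaks. Depth is unknown.

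Members were found with Python 3.11.15, numpy 2.4.6 and pandas 2.3.3, and binomial intervals (exact, Clopper-Pearson, 95%) with scipy 1.17.1. They cover counting error only. Positions are 1-based. Windows of each cluster's length were laid every 10 kb between the first and last peak of each of 23 chromosomes, unsequenced parts included. The overlap and window counts were tested on simulated data. Every member was named. The alternatives concerned membership, window edges, score, peak number, width, joining, overlap, flanks and window step. The windows and gene families were chosen with earlier results of these data known. Promoter CG counts, the peaks compared for sharing and the runs of peaks were chosen after seeing the data.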

Additional observations from a re-analysis of the deposited data

Results flagged for a closer look

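Which list covered more bases differed from window to window, and this was not tested, because each condition had 1 library. AKBA minus DMSO peak bases came to 2657 bp in the type II keratin window, 2578 bp in the type I window, 2011 bp in the KRTAP5 window at 11q13 and 1594 bp in the KRTAP10 and KRTAP12 window at 21q22.3. In the KRTAP5 window at 11p15 the value was -942 bp. The genome as a whole had more AKBA than DMSO bases, 14700 against 7570 kb.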

How the results depend on the processing

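No paired analysis was possible because each condition has 1 library and the labels give no replicate numbers. Of 162 values recomputed, 110 stayed within 1.5 times (10 percentage points for shares of windows), 49 moved further and 3 turned direction. The settings with the peak centre inside the window, without peaks at the narrowest width, with 50% reciprocal overlap and with windows end to end moved none. The cause of the other changes was not tested beyond what each setting removes or adds. Unknown depth limits every count.

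With windows extended by 50 kb, all windows held 16 DMSO and 28 AKBA peaks over 10282 and 24286 bp, and 6 of each list were shared. The difference from the flanks was -1.80 DMSO and 1.35 AKBA peaks per Mb (turned), and AKBA minus DMSO bases were 562 bp at 11p15 (turned), 3638 bp at 11q13 and 4569 bp at 21q22.3. With a score of at least 3, which assumes one scale in both lists, 3 DMSO and 4 AKBA peaks over 1717 and 1240 bp were left. The difference from the flanks was -2.19 and -3.47 peaks per Mb. AKBA minus DMSO bases were 0 bp in the type II window, 442 bp in the type I window, 294 bp at 11q13 and 0 bp at 21q22.3. The type II window then had as few peaks as 54.6% (DMSO) and 48.3% (AKBA) of windows, after 43.5% and 63.9%.

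With the 8890 highest-scoring peaks of each list, AKBA members fell to 8 and 6894 bp, at -3.10 peaks per Mb against the flanks. AKBA minus DMSO bases were 1678 bp in the type I window, -1495 bp at 11p15, 294 bp at 11q13 and 0 bp at 21q22.3. In the type II window they remained at 2657 bp. With peaks of at least 1 kb, 1 DMSO and 2 AKBA peaks over 1047 and 4033 bp were left, and the DMSO difference from the flanks was -1.09 peaks per Mb. The bases differed by 0 bp at 11q13 and at 21q22.3. Windows with as few peaks were 68.9% (DMSO) and 75.9% (AKBA) for type II and 63.5% (DMSO) for type I.

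With peaks within 5 kb joined, each run counts at its full span, the sequence between its peaks included. The 5 DMSO members then spanned 10403 bp, and the AKBA difference from the flanks was -0.73 peaks per Mb. AKBA minus DMSO bases, counted in this way, were 5128 bp in the type I window and -7585 bp at 11p15. When peaks within 1 kb counted as shared, 1 DMSO and 1 AKBA peak were shared. With flanks of 500 kb the AKBA difference was -2.83 peaks per Mb. Without the 11p15 window, a choice made after seeing the data, 3 DMSO peaks over 1418 bp were left. Without the type II window, also chosen after seeing the data, the difference from the flanks was -0.77 DMSO and 0.51 AKBA peaks per Mb (turned).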
